A study of Mus musculus with 3 samples.

Results

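The genes examined encode subunits of ATP-dependent chromatin remodelling complexes. They were taken as every listed gene whose symbol matched a fixed set of names (all symbols beginning Smarc or Ino80, and Arid1a, Arid1b, Arid2, Actl6a, Actl6b, Pbrm1, Brd7, Brd9, Dpf1 to Dpf3, Chd1 to Chd9, Mta1 to Mta3, Mbd2, Mbd3, Ruvbl1, Ruvbl2, Baz1a, Baz1b, Baz2a, Baz2b and Bptf). This gave 50 of 22068 genes, with 20 in the SWI/SNF complexes, 7 in the ISWI complexes, 14 in the CHD family and its NuRD complex, and 7 in the INO80 complex. The remaining 2, Smarcad1 and Smarcal1, encode related ATPases that belong to none of these complexes. The match was by symbol and not by any measured value, but the set of names was chosen with earlier results of these data known. RNA was sequenced from 3 stable lines of C2C12, a mouse myoblast line that forms myotubes when serum is lowered, with 1 library per line. The lines carried a lentivirus that overexpressed Linc-RAM, a lentivirus that expressed a short hairpin RNA against Linc-RAM (knockdown), or the vector with no insert (control). All 3 lines were selected with blasticidin, and polyadenylated RNA was taken after 12 h in differentiation medium with horse serum. Overexpression was driven by a CMV promoter and the hairpin by a U6 promoter. The sources used here do not say whether a line was a clone or a pool, nor which of 2 hairpins the knockdown library carried.

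Remodelling complexes use the energy of ATP hydrolysis to slide, evict or space nucleosomes, the units of DNA wrapped around histones. SWI/SNF complexes open chromatin around an ATPase that is either Brg1 (Smarca4) or Brm (Smarca2). ISWI complexes mainly space nucleosomes, NuRD joins a CHD ATPase to histone deacetylation, and INO80 slides nucleosomes, including those that hold a histone variant. In muscle cells, MyoD recruits SWI/SNF through the subunit Baf60c (Smarcd3). The study centred on the assembly of that MyoD, Baf60c and Brg1 complex, which makes the level of each subunit in these lines a question of the design. For Baf60c and Brg1 mRNA the study itself reported no change in either line, by RNA-Seq of these lines and by RT-PCR. Its evidence on assembly came from protein and chromatin. More Baf60c and Brg1 protein came down with MyoD under overexpression, and less under knockdown. RNA levels measure neither protein nor assembly.

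The promoters of 6 members are shown, since Smarca2, Actl6a, Ruvbl1 and Ruvbl2 had the ratios farthest from the control with knockdown, while Smarca4 and Smarcd3 encode the remodeller subunits named by the study. Each runs 5′ to 3′ from 250 bases before to 50 bases after a RefSeq start on GRCm38.p6, at chr19:26604910-26605209 on the forward strand for Smarca2, chr3:32708296-32708595 on the forward strand for Actl6a, chr6:88465159-88465458 on the forward strand for Ruvbl1, chr7:45434415-45434714 on the reverse strand for Ruvbl2, chr9:21615919-21616218 on the forward strand for Smarca4 and chr5:24601953-24602252 on the reverse strand for Smarcd3. Capitals mark each CANNTG, the E-box motif that MyoD and other basic helix-loop-helix factors can recognise.
Smarca2: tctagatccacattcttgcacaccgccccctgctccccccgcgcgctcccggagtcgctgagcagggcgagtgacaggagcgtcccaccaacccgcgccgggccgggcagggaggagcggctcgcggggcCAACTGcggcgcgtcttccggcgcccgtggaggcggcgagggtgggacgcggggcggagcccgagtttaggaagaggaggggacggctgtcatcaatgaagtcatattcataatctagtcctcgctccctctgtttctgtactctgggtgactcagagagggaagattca
Actl6a: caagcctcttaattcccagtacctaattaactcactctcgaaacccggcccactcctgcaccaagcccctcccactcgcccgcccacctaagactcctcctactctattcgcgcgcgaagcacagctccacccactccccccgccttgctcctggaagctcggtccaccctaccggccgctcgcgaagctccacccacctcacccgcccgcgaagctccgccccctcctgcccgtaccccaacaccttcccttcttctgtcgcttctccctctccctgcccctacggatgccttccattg
Ruvbl1: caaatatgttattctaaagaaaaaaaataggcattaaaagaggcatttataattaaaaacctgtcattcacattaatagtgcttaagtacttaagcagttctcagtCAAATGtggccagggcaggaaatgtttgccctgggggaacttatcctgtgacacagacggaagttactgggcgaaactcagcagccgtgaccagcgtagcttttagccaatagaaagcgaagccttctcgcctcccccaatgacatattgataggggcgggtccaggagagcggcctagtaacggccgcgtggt
Ruvbl2: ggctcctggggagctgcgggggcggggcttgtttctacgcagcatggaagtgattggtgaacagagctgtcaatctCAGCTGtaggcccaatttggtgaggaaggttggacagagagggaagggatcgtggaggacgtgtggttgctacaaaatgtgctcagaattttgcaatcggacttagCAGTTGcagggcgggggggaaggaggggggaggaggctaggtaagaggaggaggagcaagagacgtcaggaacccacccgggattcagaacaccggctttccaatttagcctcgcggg
Smarca4: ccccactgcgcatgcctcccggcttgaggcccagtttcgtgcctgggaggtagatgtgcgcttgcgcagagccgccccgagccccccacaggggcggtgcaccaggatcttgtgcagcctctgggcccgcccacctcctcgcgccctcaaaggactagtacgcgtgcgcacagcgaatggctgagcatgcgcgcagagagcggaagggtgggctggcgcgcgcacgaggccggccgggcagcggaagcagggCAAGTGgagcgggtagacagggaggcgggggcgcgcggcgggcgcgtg
Smarcd3: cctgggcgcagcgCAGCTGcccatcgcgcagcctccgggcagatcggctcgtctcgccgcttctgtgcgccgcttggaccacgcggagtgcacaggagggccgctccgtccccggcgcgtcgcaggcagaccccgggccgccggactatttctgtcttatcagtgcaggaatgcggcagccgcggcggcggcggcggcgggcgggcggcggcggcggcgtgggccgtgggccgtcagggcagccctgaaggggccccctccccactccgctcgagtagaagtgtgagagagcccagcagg
The E-box reads the same class of word on both strands, and CAGCTG, a form MyoD binds well, is one of its words. Counted from the start, Ruvbl2 held 2 E-boxes, CAGCTG at position −174 and CAGTTG at −68, and Smarcd3 held CAGCTG at −237. Smarca2, Ruvbl1 and Smarca4 each held 1 other E-box, and Actl6a held none. A promoter was found for 39 of the 50 members, of which 23 (59.0%) held CANNTG, against 65.3% of 7305 genes that averaged 1 RPKM or more and 75% of 27025 genes in all. CAGCTG was in 5 of the 39 (12.8%), against 17.5% and 18.3%. The GC box GGGCGG, searched on both strands and bound by Sp1, was in 36 of the 39 (92.3%), against 72.4% and 38.2%. These matches describe the letters of the window only.

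Values are RPKM as deposited, reads scaled for the length of the gene and the read total of the library, so levels can be compared between genes. The read totals behind them, recovered from the steps of the values, were 2105513 for overexpression, 1878146 for knockdown and 5130481 for the control, so values of the smaller libraries carry more counting error. With 1 library per condition no difference has a replicate check and no test between conditions was possible. Each ratio has a 95% exact (Clopper-Pearson) interval from the recovered reads, which covers counting error only. The comparisons of both lines with the control share that 1 library. Linc-RAM itself, 2310015B20Rik, had 1 read with overexpression (1.07 RPKM) and was listed at 0 with knockdown and in the control, so it does not check the labels. The markers listed for myoblasts, Myod1, Myf5, Des, Cdh15 and Myog, were all present, of which the study read Myog as a sign of differentiation. Their summed level was 499.8 RPKM with overexpression, 179.9 with knockdown and 346 in the control. It was mostly Des, at 386.1, 145.2 and 291 RPKM. Myod1 was at 34.1, 9.76 and 16.7 RPKM, and Myog at 22.1, 3.598 and 3.951 RPKM. Each of the 5 was highest with overexpression and lowest with knockdown. The Myog difference between knockdown and control lay within counting error, as did both differences of Myf5 from the control. Markers of endothelium reached at most 0.144 RPKM, and of the blood markers Ptprc was at 0 throughout. Cd68, for which both intervals against the control included 1, was at 0.471, 1.58 and 0.967 RPKM with overexpression, with knockdown and in the control. The sum of 6 proliferation markers was 131.2, 113.3 and 125.3 RPKM in that order, but single markers moved in different directions. Mki67 was at 33.0, 43.3 and 42.2 RPKM, Ccnb1 at 17.0, 11.0 and 9.76 RPKM, and Mcm5 at 5.97, 3.58 and 7.29 RPKM. Against the control, the interval left out 1 for Mki67 (lower) and Ccnb1 (higher) with overexpression. With knockdown it did so for Mcm5 (lower). The other intervals of these markers against the control included 1. The sum of 3 neuronal markers was 148.8, 29.6 and 111.6 RPKM, but its members differed, with Nefl at 18.8, 0.266 and 3.41 RPKM, Tubb3 at 92.6, 19.8 and 26.2 RPKM and Stmn2 at 37.4, 9.51 and 81.9 RPKM. The sum of 3 fibroblast and fat markers, 36.2, 73.6 and 82.2 RPKM, was mostly Col1a1 at 32.0, 65.7 and 78.2 RPKM. Pdgfra was at 2.68, 6.56 and 3.39 RPKM, 1.94 of the control with knockdown (1.44 to 2.59), and Pparg was at 1.44, 1.34 and 0.688 RPKM. Both intervals of Pparg against the control included 1, at 0.580 to 7.26 with overexpression and 0.488 to 7.14 with knockdown. The part of these differences in the results below was not tested, and in bulk RNA fewer cells of a type and less RNA per cell cannot be told apart.

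Most remodeller subunits were expressed, at moderate levels. Of the 50, 45 averaged 1 RPKM or more over the 3 libraries and were compared, a filter passed by 10172 of all genes. Their median level was 8.19 RPKM with overexpression, 7.08 with knockdown and 8.06 in the control, against 6.11, 6.04 and 6.04 RPKM over all genes that passed. Actl6b, Dpf3 and Smarca1 were listed at 0 in all 3 libraries. Actl6b and Dpf3 encode subunits of the neuronal and the heart and muscle forms of SWI/SNF, and Smarca1 is the ISWI ATPase Snf2l. At the longest annotated transcript, 3 reads, the limit that a count of 0 allows, would be 0.367 RPKM of Actl6b, 0.199 of Dpf3 and 0.122 of Smarca1 in the control. Chd5, a CHD ATPase best known from brain and testis, had 1 read with overexpression, 0 with knockdown and 3 in the control. Dpf1, the neuronal paralogue of Dpf2, had 6, 3 and 5 reads in that order and a mean of 0.793 RPKM, just under the filter, while Ruvbl2, with the lowest mean that passed, had 2.06 RPKM.

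**Figure D1:**
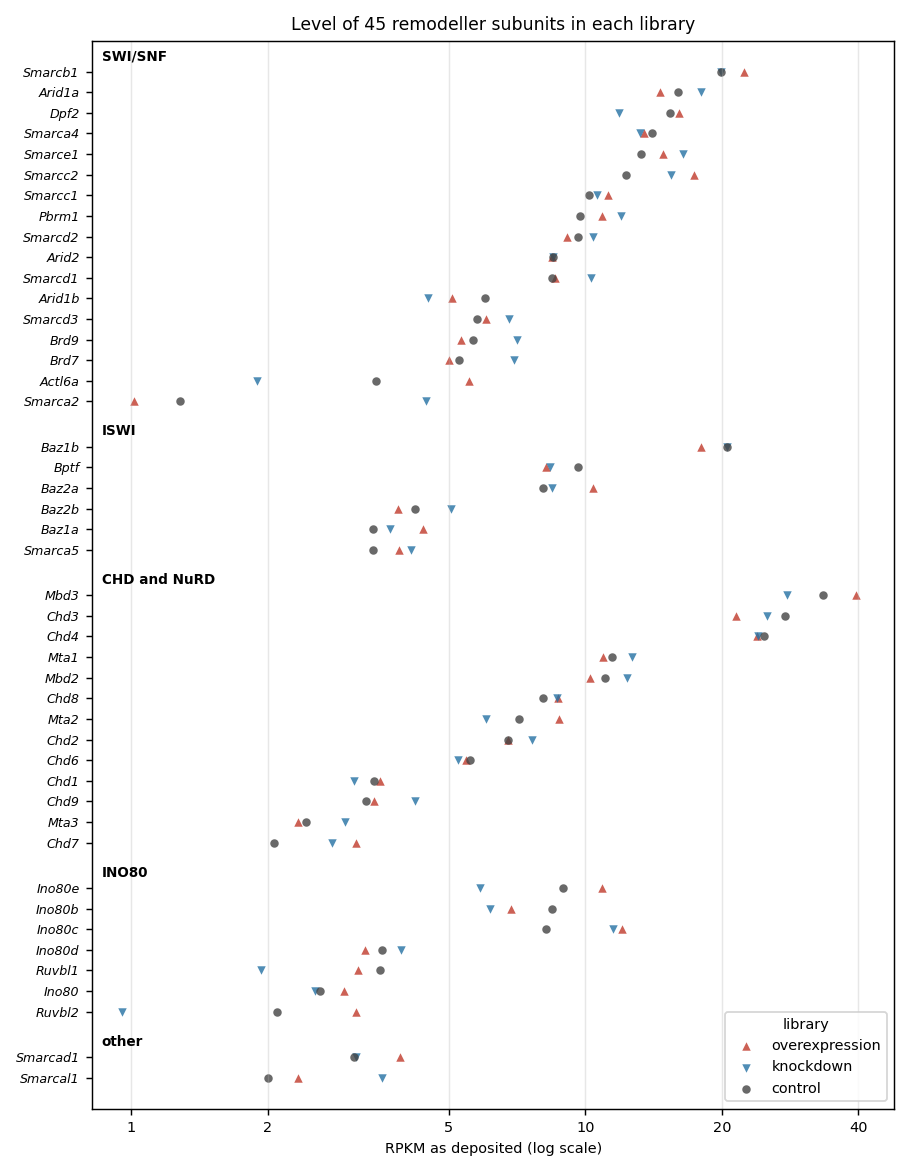
RPKM (log scale) of the 45 subunits that averaged 1 RPKM or more, by complex and in order of the control level, with a point for each of the overexpression, knockdown and control libraries. Smarca2 stands at 4.46 RPKM with knockdown, to the right of its other points at 1.01 and 1.28, and Ruvbl2 at 0.954 with knockdown is the lowest point.

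With Linc-RAM overexpression no subunit was 2-fold from the control. Of the 45, 0 were at least 2-fold higher, where 3.64% of 10165 genes were, and 0 were at least 2-fold lower, where 3.47% were. Ratios ran from 0.776 (Chd3) to 1.60 (Actl6a), with a median log2 ratio of 0.05 and 25 subunits above the control and 20 below, against a median of 0.00 over all genes. The middle 50% of log2 ratios lay between −0.09 and 0.22 for the subunits and between −0.26 and 0.29 for all genes, but the subunits also had more reads, with a median of 159 in the control against 88. For 36 of the 45 the interval lay within 2-fold in both directions (56.9% of all genes), for 24 it lay within 1.5-fold (23.2%), and for 0 it lay wholly above 2-fold (0.797%). At least 1.5-fold higher were Actl6a and Chd7 (10.6% of all genes), and 0 were at least 1.5-fold lower (9.52%).

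With Linc-RAM knockdown 1 subunit was at least 2-fold higher, Smarca2, and 1 was at least 2-fold lower, Ruvbl2, where 3.38% and 4.19% of all genes were. Ratios ran from 0.455 (Ruvbl2) to 3.48 (Smarca2), with a median log2 ratio of 0.10 and 27 subunits above the control and 18 below, against a median of −0.02 over all genes. The interval lay within 2-fold for 36 of the 45 (52.6% of all genes) and within 1.5-fold for 17 (19.6%). At least 1.5-fold higher were Smarca2 and Smarcal1 (10.5% of all genes), and at least 1.5-fold lower were Actl6a, Ino80e, Ruvbl1 and Ruvbl2 (12.1%). In the direct ratio of overexpression to knockdown, Actl6a and Ruvbl2 were at least 2-fold higher with overexpression (5.83% of 10146 genes) and Smarca2 at least 2-fold lower (5.11%). At least 1.5-fold higher were Actl6a, Ino80e, Ruvbl1 and Ruvbl2 (14.3%), and lower Smarca2 and Smarcal1 (12.6%). The interval of this ratio lay wholly above 2-fold for 0 subunits (0.818%), within 2-fold for 32 (43%) and within 1.5-fold for 13 (13.1%). With 45 subunits, counts of 0 to 2 past 2-fold lie near the shares of all genes.

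**Figure D2:**
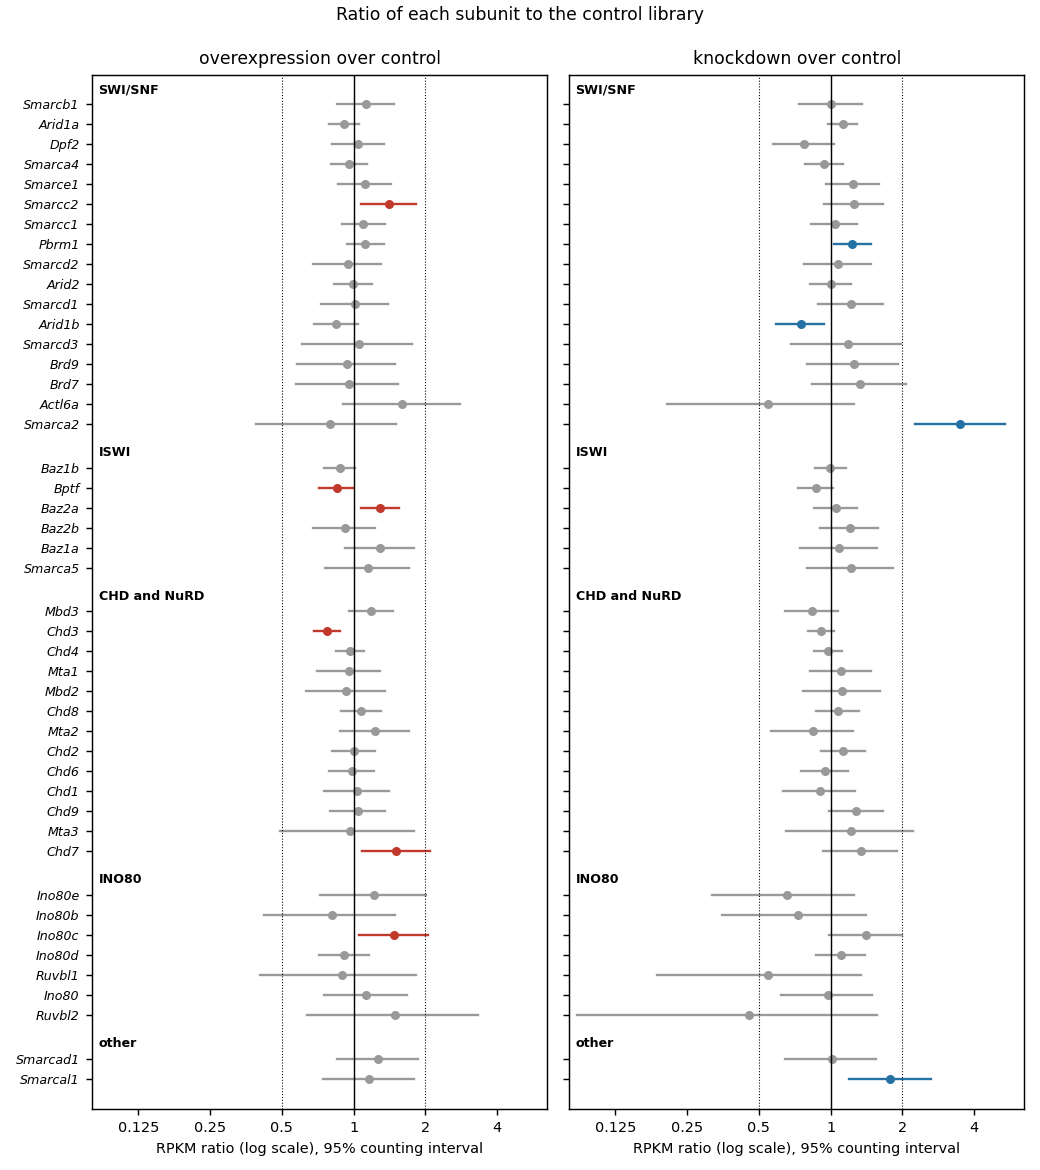
RPKM ratio to the control (log scale) for each of the 45 subunits, with overexpression on the left and knockdown on the right. Bars are 95% counting intervals, coloured where they leave out 1, and dotted lines mark 2-fold. The bar of Smarca2 with knockdown, 2.26 to 5.41, is the only one wholly beyond 2-fold.

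Smarca2 (chromosome 19 of mm9, 26679650 to 26852811), which encodes Brm, the alternative ATPase of SWI/SNF, was the subunit farthest from the control. It was at 1.01 RPKM with overexpression, 4.46 with knockdown and 1.28 in the control, from 13, 51 and 40 reads. The knockdown library thus stood above both others, and the ratio of knockdown to control was 3.48 (95% interval 2.26 to 5.41), rank 60 from the top of 10165 genes. Its interval lay wholly above 2-fold, as for 0.394% of all genes and 1 of the 45 subunits in that comparison. Overexpression stood at 0.792 of the control (0.389 to 1.51), within counting error, and at 0.227 of the knockdown library (0.113 to 0.424). With 1 RPKM added to each value the ratio of knockdown to control was 2.39.

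Smarca4 (chromosome 9, 21420613 to 21508674), which encodes Brg1, was at 13.5 RPKM with overexpression, 13.2 with knockdown and 14.1 in the control, with both intervals within 1.5-fold of the control. Brm took a larger share of the ATPase transcripts with knockdown, while its shares with overexpression and in the control differed within counting error. Smarca2 made up 7% of the summed RPKM of Smarca4 and Smarca2 with overexpression, 25.3% with knockdown and 8.35% in the control. The Smarca4 to Smarca2 ratio was 13.3 with overexpression, 2.96 with knockdown and 11.0 in the control, and a ratio within a library does not depend on how libraries are scaled. The knockdown ratio was 0.269 of that in the control (exact conditional interval 0.167 to 0.434), and the overexpression ratio was 1.21 of it (0.617 to 2.53).

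Of the core subunits of SWI/SNF, Smarcb1 (Snf5) was at 22.4, 19.9 and 19.9 RPKM with overexpression, with knockdown and in the control, and the scaffold subunit Smarcc1 was at 11.2, 10.6 and 10.2 RPKM. Its paralogue Smarcc2 was at 17.4, 15.5 and 12.3 RPKM. Overexpression stood at 1.41 of the control for Smarcc2 (1.08 to 1.83), and knockdown at 1.25 (0.937 to 1.66). Smarce1 (Baf57) was at 14.8, 16.4 and 13.3 RPKM in the same order, with both intervals around 1. The 3 Baf60 paralogues, of which a complex holds 1, took similar shares in the 3 libraries. Smarcd3 (Baf60c, chromosome 5, 24096636 to 24107830) was at 6.06, 6.79 and 5.76 RPKM and took 25.5%, 24.7% and 24.1% of their summed RPKM with overexpression, with knockdown and in the control. Smarcd1 took 36.2%, 37.5% and 35.5%, and Smarcd2 took 38.3%, 37.8% and 40.4%. With 22, 22 and 51 reads of Smarcd3, the intervals of its ratio to the control, 0.607 to 1.76 and 0.681 to 1.98, leave room for changes under those bounds.

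Other subunits define the forms of SWI/SNF. Arid1a, the large subunit of the canonical BAF form that binds DNA, was at 14.6 RPKM with overexpression, 18 with knockdown and 16.0 in the control, and its paralogue Arid1b was at 5.07, 4.51 and 6.02 RPKM. Arid1b was at 0.749 of the control with knockdown (0.591 to 0.942), and the Arid1a to Arid1b ratio was 3.98 with knockdown and 2.66 in the control, 1.5 times as large (1.14 to 1.98). Of the PBAF form, Pbrm1 (polybromo) was at 10.9, 12 and 9.73 RPKM in overexpression, knockdown and control, 1.23 of the control with knockdown (1.03 to 1.47). Its partners Arid2, at 8.47, 8.49 and 8.51 RPKM, and Brd7, at 5.01, 6.96 and 5.26 RPKM, had intervals that included 1. Brd9, the bromodomain subunit of the non-canonical form, was at 5.33, 7.08 and 5.67 RPKM. Dpf2, which reads acetylated histones, was at 16.1, 11.9 and 15.4 RPKM, and its knockdown ratio of 0.773 had an interval of 0.570 to 1.03. Actl6a (Baf53a, chromosome 3, 32607468 to 32625890), an actin-related subunit of proliferating cells that INO80 also holds, was at 5.55, 1.89 and 3.46 RPKM from 23, 7 and 35 reads. Both its ratios to the control, 1.60 (0.903 to 2.79) and 0.546 (0.205 to 1.25), were within counting error, while overexpression stood 2.93-fold above knockdown (1.22 to 8.09).

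Among ISWI subunits no ratio was 1.5-fold from the control. The ATPase Smarca5 (Snf2h) was at 3.89 RPKM with overexpression, 4.13 with knockdown and 3.40 in the control, ratios of 1.14 (0.756 to 1.70) and 1.21 (0.796 to 1.82). Baz1b, of the WICH complex, was the most abundant at 18, 20.5 and 20.6 RPKM. Baz2a, of the nucleolar complex NoRC, was at 10.4, 8.46 and 8.06 RPKM, 1.29 of the control with overexpression (1.07 to 1.55), and Bptf, of the NURF complex, was at 8.19, 8.34 and 9.65 RPKM, 0.848 of it (0.718 to 0.998). The other 2, Baz1a and Baz2b, lay between 3.41 and 5.07 RPKM in the 3 libraries with intervals that included 1.

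In the CHD family, Chd3 and Chd4 had the most reads. Chd4, the main ATPase of NuRD, was at 23.9 RPKM with overexpression, 24.0 with knockdown and 24.7 in the control, from 323, 290 and 815 reads, with ratios of 0.966 (0.846 to 1.10) and 0.972 (0.847 to 1.11). Its paralogue Chd3 was at 21.4, 25.1 and 27.6 RPKM. It was lower with overexpression at 0.776 of the control (0.683 to 0.881), so that Chd3 was below Chd4 in that library and above it in the others, and the Chd4 to Chd3 ratio was 1.24 times that in the control (1.04 to 1.49). Chd7, the ATPase mutated in CHARGE syndrome, was at 3.12, 2.76 and 2.06 RPKM. Overexpression stood at 1.51 of the control for Chd7 (1.08 to 2.09), and knockdown at 1.34 (0.931 to 1.90). Chd8, a partner of beta-catenin, was at 8.70, 8.65 and 8.09 RPKM, Chd6 at 5.45, 5.25 and 5.56 RPKM, and Chd9 at 3.42, 4.21 and 3.28 RPKM. Chd1, which acts on transcribed genes, was at 3.54, 3.09 and 3.42 RPKM, and Chd2 at 6.75, 7.63 and 6.75 RPKM. All intervals of these last 5 genes included 1. Of the other NuRD subunits, the methyl-CpG-binding family protein Mbd3 was the most abundant of all 45 subunits, at 39.5, 27.8 and 33.4 RPKM, 1.42-fold higher with overexpression than with knockdown (1.07 to 1.89). Mbd2 was at 10.3, 12.4 and 11.1 RPKM. Mta1, Mta2 and Mta3, which link NuRD to transcription factors, were at 11.0, 8.77 and 2.33 RPKM with overexpression, 12.7, 6.04 and 2.96 with knockdown, and 11.4, 7.13 and 2.42 in the control, with intervals that included 1.

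In INO80 5 of 7 subunits lay below the control with knockdown, all within counting error, where 5245 of 10165 genes lay below it. The ATPase Ino80 was at 2.94 RPKM with overexpression, 2.54 with knockdown and 2.60 in the control. Ruvbl1 (chromosome 6, 88415403 to 88447566) and Ruvbl2 (chromosome 7, 52677222 to 52693466), the AAA+ ATPases Pontin and Reptin that also serve other complexes, had few reads. Ruvbl1 had 11, 6 and 30 reads (3.16, 1.93 and 3.53 RPKM) with overexpression, with knockdown and in the control. Ruvbl2 had 11, 3 and 18 reads (3.12, 0.954 and 2.09 RPKM). The knockdown ratios of 0.546 (0.186 to 1.33) for Ruvbl1 and 0.455 (0.0859 to 1.56) for Ruvbl2 were not detectable differences at this depth. Ino80e, at 10.9, 5.86 and 8.93 RPKM, and Ino80b, at 6.86, 6.16 and 8.45 RPKM, had knockdown ratios of 0.656 (0.318 to 1.25) and 0.728 (0.351 to 1.4). Ino80c was at 12.1, 11.5 and 8.18 RPKM. Overexpression stood at 1.48 of the control for Ino80c (1.05 to 2.06), and knockdown at 1.41 (0.983 to 1.99). Ino80d was at 3.26, 3.94 and 3.57 RPKM, with intervals that included 1.

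With overexpression the median log2 ratios were 0.02 for SWI/SNF (17 subunits), 0.03 for ISWI (6), 0.00 for CHD and NuRD (13) and 0.18 for INO80 (7), the first 3 of which turned negative with scaling to the upper quartile. With knockdown 12 of 17, 4 of 6 and 7 of 13 subunits of SWI/SNF, ISWI, and CHD and NuRD were above the control. Of all 10165 genes, 4920 were above it and 5245 below. The medians of these 3 groups were 0.17, 0.10 and 0.10. That of INO80 was −0.46, with 2 of 7 above the control and 5 below, but none of the 7 had an interval that left out 1, and without Ruvbl1 and Ruvbl2, which other complexes share, the median was −0.04. The reads of all INO80 subunits together gave the opposite sign, 1.02 of the control with knockdown (0.866 to 1.19), with 51 and 100 of its 214 knockdown reads in Ino80c and Ino80d. The same pooled ratio with knockdown was 1.07 for SWI/SNF (1.01 to 1.14), 1.0 for ISWI (0.917 to 1.09) and 0.996 for CHD and NuRD (0.937 to 1.06). The SWI/SNF pool includes Smarca2, with 51 of its 1515 knockdown reads and 40 of its 3856 control reads. Its lower bound lay close to 1, and a pooled ratio without Smarca2 was not taken, so it does not show a rise across the complex. With overexpression the 4 pooled ratios lay between 0.971 and 1.08 with intervals that included 1. Members of a complex are not replicates, so these medians and pooled ratios describe the 3 libraries only.

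**Figure D3:**
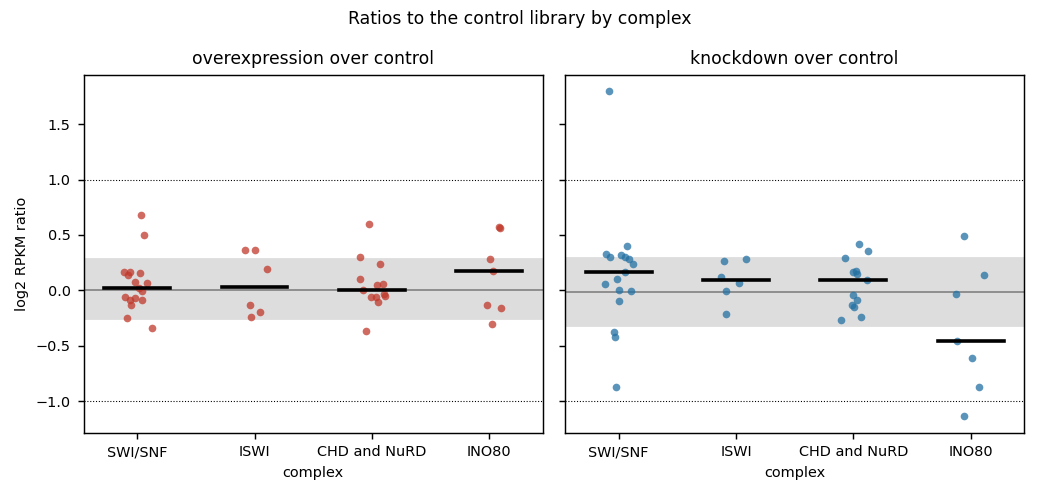
Log2 RPKM ratio to the control by complex, with overexpression on the left and knockdown on the right. Each point is a subunit, black bars are medians, the grey line and band are the median and middle 50% of all genes compared, and dotted lines mark 2-fold. The INO80 median with knockdown is −0.46 over 7 subunits that spread from below the lower dotted line to above the band, and the band shows single genes, not the spread of a median.

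The 5 subunits lowest with knockdown were all short by recovered length, which is a lower estimate for each of them but Ino80b. The 9 subunits with a recovered length under 2000 nt (Actl6a, Ino80b, Ino80e, Mbd2, Mbd3, Ruvbl1, Ruvbl2, Smarcb1 and Smarcd3) gave a median log2 ratio of 0.17 for overexpression and −0.46 for knockdown, a length split chosen after seeing the data. All 3220 genes of that length class gave 0.04 and −0.07. The 24 subunits of 5000 nt and over gave −0.00 and 0.06. The short subunits had a median of 50 control reads, against 307.5 for the long ones, so complex, length and depth move together here and their parts were not tested.

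Of 21 pairs of paralogous genes, some alternative subunits of a complex and others only of 1 family or, like Ruvbl1 and Ruvbl2, present together, 18 could be compared between at least 2 libraries. The interval of the change in their ratio, not adjusted for the number of pairs, left out 1 for 1 of 18 pairs with overexpression (Chd4 and Chd3) and for 2 of 17 with knockdown (Smarca4 and Smarca2, Arid1a and Arid1b). Between overexpression and knockdown it left out 1 for Smarca4 and Smarca2 alone of 17.

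**Figure D4:**
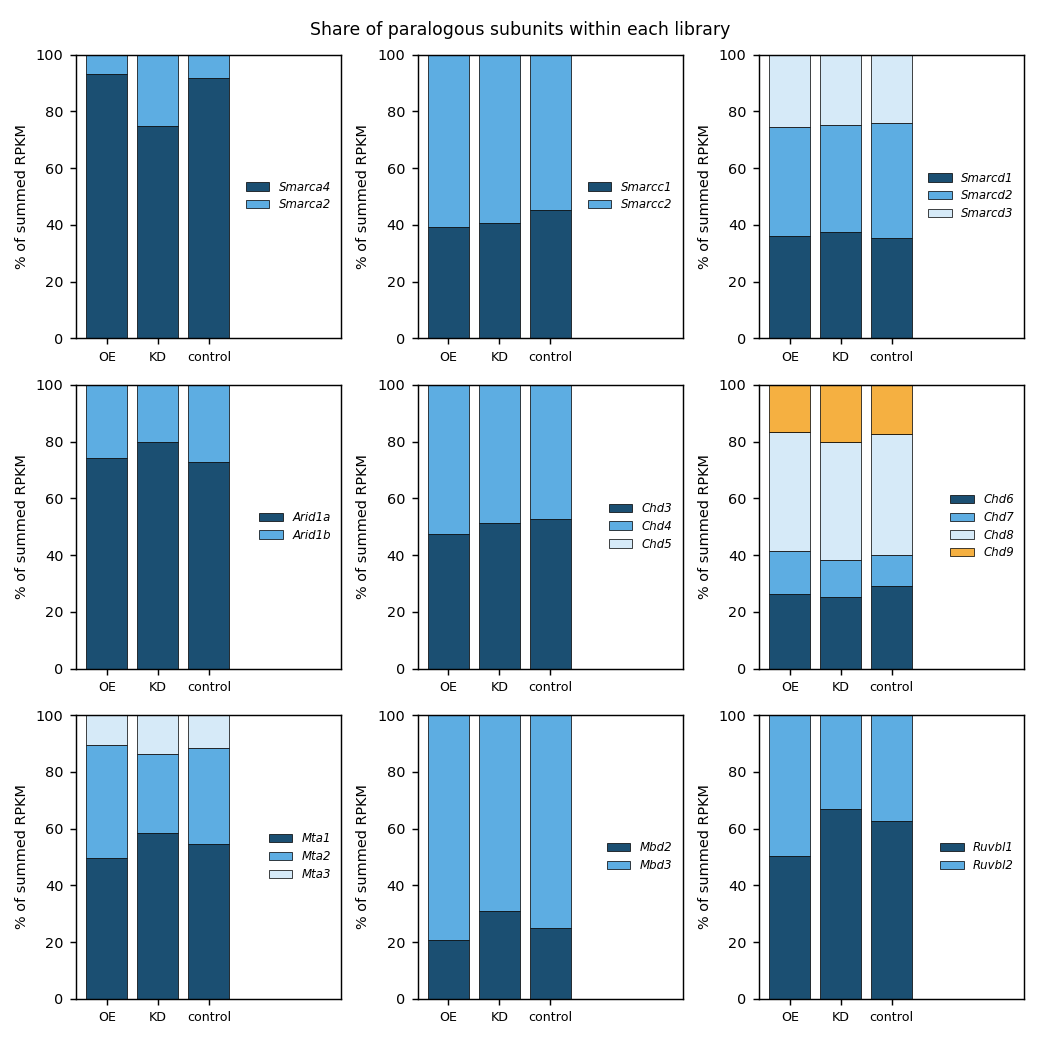
Share of each paralogue in the summed RPKM of its set (%), for the overexpression (OE), knockdown (KD) and control libraries. The share of Smarca2 is 25.3% with knockdown, against 7% and 8.35% in the overexpression and control libraries, and that of Smarcd3 lies between 24.1% and 25.5%.

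Outside the complexes, Smarcal1, an annealing helicase of stalled replication forks, was at 2.33 RPKM with overexpression, 3.57 with knockdown and 2.00 in the control, 1.78 of the control with knockdown (1.2 to 2.63) from 45 and 69 reads. Smarcad1, which acts in heterochromatin maintenance and DNA repair, was at 3.91, 3.13 and 3.10 RPKM, with intervals that included 1. In all, the interval left out 1 on the higher side for 4 of 45 members with overexpression (Baz2a, Chd7, Ino80c and Smarcc2, 9.41% of all genes) and 3 with knockdown (Pbrm1, Smarca2 and Smarcal1, 9%). On the lower side it did so for 2 with overexpression (Bptf and Chd3, 8.6%) and 1 with knockdown (Arid1b, 10.4%).

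Further subunits of the same complexes, from a list of 28 genes, gave 24 that could be compared. With overexpression 3 of them were at least 1.5-fold higher (10.6% of all genes) and 5 lower (9.52%). With knockdown 0 were higher (10.5%) and 3 lower (12.1%), and none reached 2-fold from the control in either line. For overexpression against knockdown 2 of the 24, Bcl7a and Actr8, were at least 2-fold higher (5.83%) and 0 lower (5.11%). Actr8, an actin-related subunit of INO80, was at 5.60, 2.76 and 4.87 RPKM with overexpression, with knockdown and in the control. All its intervals included 1, also that of overexpression against knockdown. Of the SWI/SNF partners, Bcl7a was at 5.11, 1.68 and 2.87 RPKM with overexpression, with knockdown and in the control, 1.78-fold higher with overexpression (1.16 to 2.72). Ss18, which joins the canonical and non-canonical BAF forms, was at 13.5, 11.9 and 11.7 RPKM. Among the histone-binding proteins shared by ISWI and NuRD, Rbbp4 was at 24.1, 24.6 and 19.2 RPKM, 1.26 (1.07 to 1.48) and 1.29 (1.08 to 1.52) of the control, and Rbbp7 was at 40.1, 48.5 and 50.1 RPKM, 0.801 of the control with overexpression (0.677 to 0.945). The NuRD subunit Gatad2a was at 12.3, 7.45 and 9.07 RPKM, 1.35 of the control with overexpression (1.09 to 1.67). The 7 further INO80 subunits gave a median log2 ratio of −0.60 for overexpression and −0.55 for knockdown. Of these, Mcrs1, Uchl5, Actr5 and Nfrkb were at least 1.5-fold lower with overexpression, and Actr8 and Tfpt with knockdown, all with intervals that included 1.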

How the data were processed

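The authors mapped the reads of 3 libraries to mm9 with TopHat, for which the submitters' processing notes give version 1.4.1, and DEGSeq gave the deposited RPKM of each gene. The annotation behind the gene lengths and the handling of multi-mapped reads is not given in the sources used here, so reads of close paralogues may be shared. Members and gene lists were chosen with earlier results of these data known. Ratios were taken from RPKM without a pseudocount, for genes that averaged 1 RPKM or more and had a control above 0 (10165 genes, and 10146 above 0 with knockdown for the direct ratio), and the 2-fold threshold follows the study's methods, with 1.5-fold, which the study also used, beside it. A gene with 1 read has a value set by its length and the read total, and 221, 229 and 220 genes coincided at the totals for overexpression, knockdown and control at GENCODE lengths on mm9. Reads per gene were then taken at an annotated length (23.6% of genes) or the smallest length from 200 nt that gave whole reads in all 3 libraries, so they are lower estimates, which widens the intervals, while duplicate or shared reads, which were not examined, would make them too narrow. Ratios of paralogues have exact conditional intervals. The steps were tested on simulated data. Every member was accounted for and could be named, and genes outside the members were named only from the lists. Promoters are from RefSeq (GRCm38.p6), and gene positions are those of GENCODE on mm9. Alternatives were other filters, 1 RPKM added, other scalings, other thresholds and groups without shared subunits. Software was scipy 1.17.1, pandas 2.3.3, numpy 2.4.6, matplotlib 3.10.9 and Python 3.11.15.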

Additional observations from a re-analysis of the deposited data

How the results depend on the processing

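Counts of subunits at least 2-fold from the control rest on genes of low RPKM, with knockdown Smarca2 and Ruvbl2, at means of 2.25 and 2.06. Of these, Ruvbl2 had few reads, with 3 in the knockdown library, while Smarca2 had 51. With no filter, 1 was higher with overexpression (Dpf1) in place of 0. Over the 30 with a mean RPKM of at least 5, 0 were higher and 0 lower with knockdown, and 0 and 0 for overexpression against knockdown. With 1 RPKM added, 0 were lower with knockdown. The shares of all genes with no filter, at a mean of 5 RPKM or with 1 RPKM added are not given. These counts therefore have no background beside them. At 1.5-fold, 2 were higher with overexpression, 2 higher and 4 lower with knockdown, and 4 higher and 2 lower for overexpression against knockdown. By intervals that left out 1, 4 were higher and 2 lower with overexpression, 3 were higher with knockdown and 3 lower for overexpression against knockdown. Those 3 were Arid1a at 0.814 (0.684 to 0.970), Chd3 at 0.853 (0.730 to 0.996) and Smarca2, where 8.18% of 10146 genes were lower. Higher in that direct ratio were 2, Actl6a and Mbd3 (9.65%). Without Smarca2, an alternative added after seeing the data, 0 were higher with knockdown and 0 lower for overexpression against knockdown. Scaling to the median ratio or the upper quartile, which shifted all genes by at most 0.10 on the log2 scale, left these counts within 1.5 times of those reported, but upper-quartile scaling turned the overexpression medians negative for SWI/SNF (−0.08), ISWI (−0.06) and CHD and NuRD (−0.09). With no filter that of CHD and NuRD was −0.01. Over subunits that averaged 5 RPKM or more, the overexpression medians of ISWI and of CHD and NuRD were −0.19 and −0.03, and their knockdown medians −0.00 and −0.04. The knockdown median of INO80 was −0.46, and −0.04 without the shared subunits Ruvbl1 and Ruvbl2. No paired analysis was possible because each condition has 1 library, which also leaves no library to leave out.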

Other observations

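Related remodelling genes outside these complexes were mostly near the control, with 9 of 12 listed genes compared and medians of 0.04 with overexpression and 0.01 with knockdown. Yeats4, an acetyl-lysine reader of the SRCAP and TIP60 complexes, was at 13.8 RPKM with overexpression, 6.81 with knockdown and 6.78 in the control, 2.04-fold higher with overexpression (95% counting interval 1.31 to 3.15). Vps72, which binds the variant H2A.Z in the same complexes, was at 16.2, 10.4 and 16.7 RPKM, 0.622 of the control with knockdown (0.397 to 0.944). Atrx, an ATPase of heterochromatin, was at 9.74, 13.3 and 11.5 RPKM, 0.847 of the control with overexpression (0.721 to 0.993). The other 6 had intervals that included 1 in both comparisons.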
